A study of Danio rerio with 6 samples.

Results

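Ion channel and neurotransmitter receptor genes were examined in reporter-sorted head cells of zebrafish (Danio rerio), scarb2a mutants and wild type siblings. They were taken by symbol: potassium (kcn), sodium (scn), calcium (cacn) and HCN channel genes, and the genes of GABA-A, AMPA, NMDA, kainate, glycine and nicotinic acetylcholine receptors. The authors' table lists 11218 genes, of which 65 matched, and 42 of these had a mean of at least 5 normalized counts and were tested. The other 23 are described by their levels. Just inside that limit were kcnb2 with a mean of 5.05 and cacna1ab with 5.12, and just outside it gria4b and kcnip1b with 4.58 each.

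Both groups were heads at 48 hours post fertilization, from scarb2a mutants or from their wild type siblings, and the labels name no allele. In each, live scarb2a+ cells were sorted from fish with the reporter, written TgBAC(scar2ba:KalTA4; UAS-mKate2) in the labels, in which scarb2a regulatory sequence drives a red fluorescent protein through a transcriptional activator. Each library came from 5000 cells of a pool of 50 heads, so that it averages over many fish. There were 3 libraries per genotype, wild type 1, 3 and 4 and mutant 1, 2 and 3, which the labels call biological replicates.

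Ion channels set the electrical behaviour of cells. Voltage-gated sodium and calcium channels carry the inward currents of action potentials and transmitter release, and potassium channels bring the membrane back towards rest. Receptors for glutamate, acetylcholine, GABA and glycine are themselves channels that open when the transmitter binds, and glutamate is the main excitatory transmitter of the vertebrate brain. In the developing brain such genes come on as progenitors leave the cell cycle and become neurons.

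The libraries held between 1560238 and 2086990 counts each. The mutated gene lay near the detection limit. scarb2a had 3.5, 2.2 and 1.6 normalized counts in wild type 1, 3 and 4 and 1.0, 5.9 and 4.5 in mutant 1, 2 and 3, values that overlapped and that check neither the genotype nor the sort (two-sided exact permutation p = 0.7; with 3 libraries a side it cannot fall below 0.1). Among lists of cell type markers, 6 of 18 neuronal markers tested fell in the mutant and none rose. Also lower were 9 of 12 photoreceptor, 8 of 8 lens, 7 of 12 radial glia and 2 of 5 oligodendrocyte lineage markers, with 2 radial glia markers higher. Higher were 11 of 11 mesenchymal, 5 of 5 epidermal, 3 of 7 endothelial, 5 of 5 red blood cell and 1 of 3 macrophage markers, with none lower. The red blood cell markers were uneven, with sums of 1922.0, 17.9 and 326.3 in mutant 1, 2 and 3 and 0.0 to 8.0 in wild type. None of 14 skeletal muscle, 1 heart muscle and 1 hair cell markers passed. For comparison, 8.50% of all genes tested were lower and 10.9% higher. Such bulk values cannot tell fewer cells of a type from less RNA per cell.

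The channel and receptor genes that passed the test between genotypes were all lower in the mutant. Of the 42 tested, 8 were lower in the mutant and none was higher, by limma with Benjamini-Hochberg adjustment over all 9647 genes tested and a threshold of 0.05. Of all genes tested, 8.50% were lower and 10.9% higher, against 19.0% and 0.00% of the channel and receptor genes. The count of lower genes was 5 without wild type 1, mutant 2 or mutant 3, 4 without wild type 4, 3 in DESeq2 and 11 when library totals were made equal. At an unadjusted limma p of 0.05, 13 of the 42 were lower and none higher, against 14.5% and 16.7% of all genes tested. edgeR and DESeq2 also called none of the 42 higher. All mutant values lay below all wild type values for 14 of the 42, or 33.3%, against 16.7% of all genes tested. For none of the 42 did all mutant values lie above, against 17.9% of all genes. The median log2 difference, mutant minus wild type on the log2(value + 1) scale, was -0.22 over the 42 and -0.01 over all genes tested. That scale understates the change of low genes. Of the 42 log2 differences 28 were negative and 14 positive, against 4968 and 4679 over all genes tested.

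**Figure D1:**
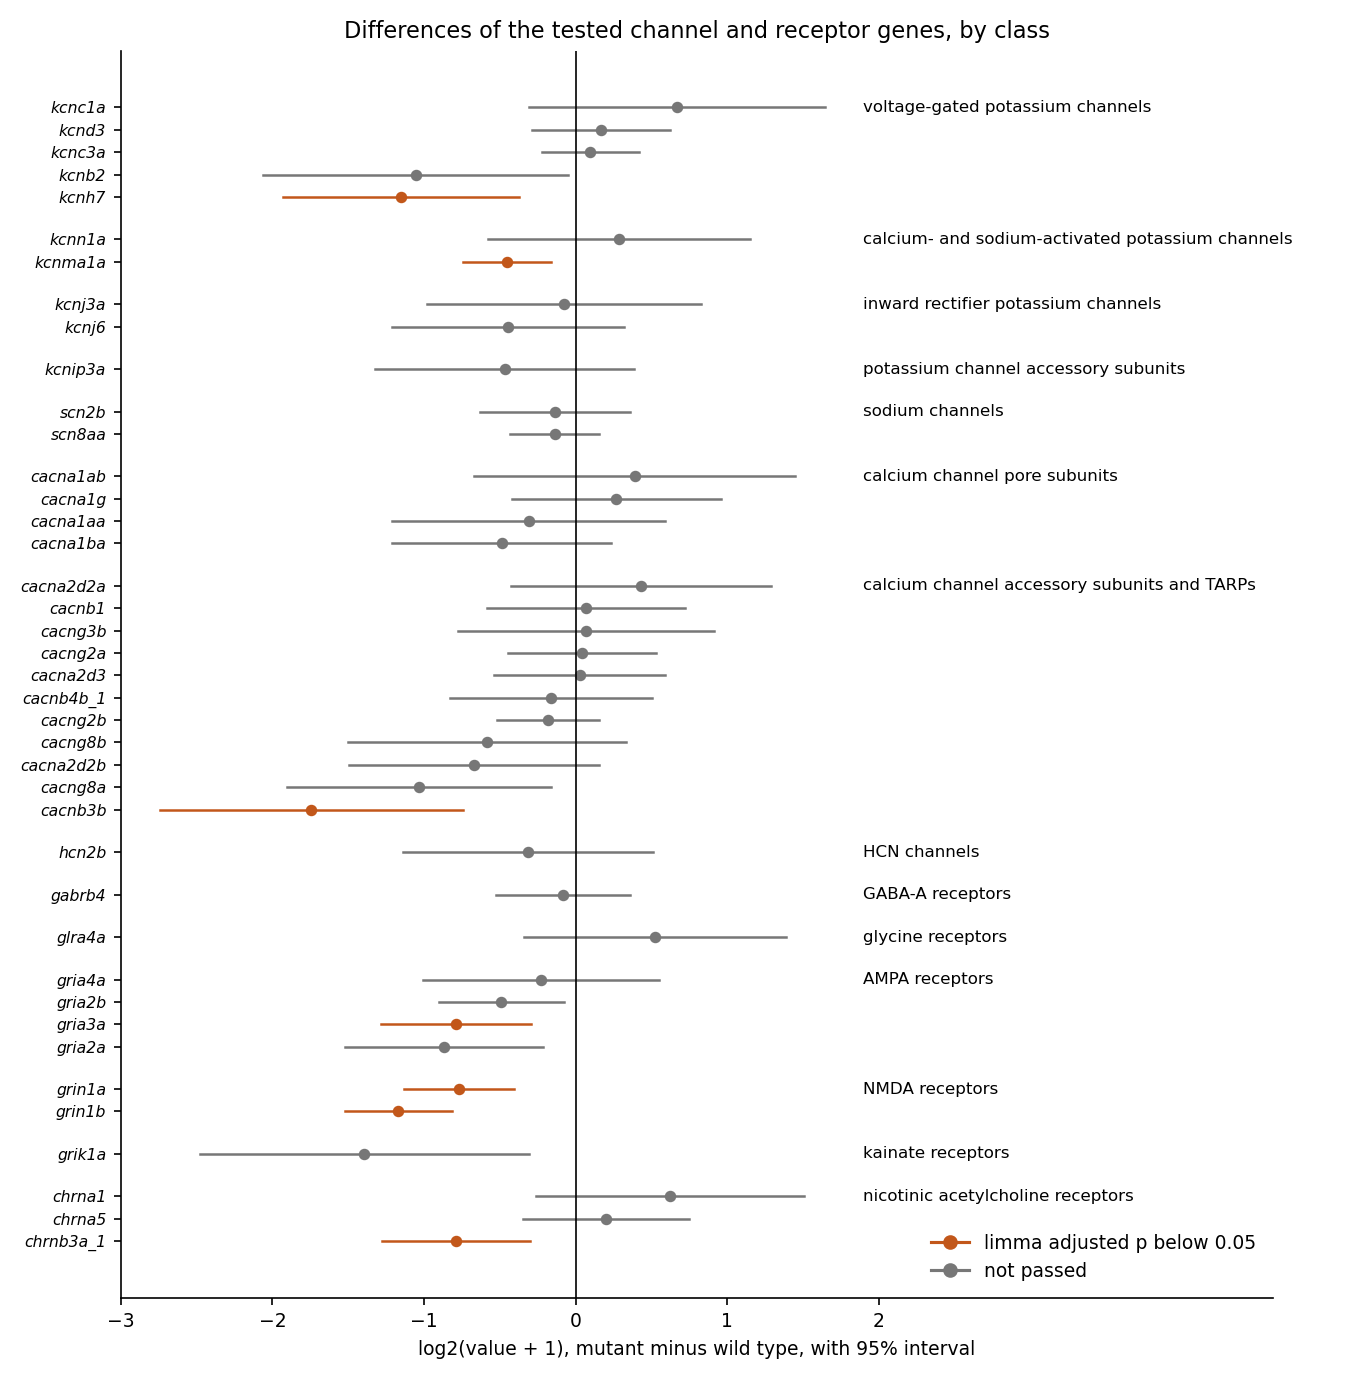
Fitted log2 difference (mutant minus wild type, log2(value + 1)) of 40 of the 42 tested channel and receptor genes, grouped by class, with its 95% interval from limma. Genes with an adjusted p below 0.05 are in orange, and the 7 of them drawn lie left of 0; the 7 glutamate receptor genes (gria, grin and grik) also all lie left of 0.

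Receptors and voltage-gated channels are described apart. Of 14 receptor genes tested 5 were lower (35.7%), with a median log2 difference of -0.63. Of 28 genes of voltage-gated and other channels 3 were lower (10.7%), with a median of -0.15. The latter group takes in accessory subunits and the cacng genes, to which regulators of AMPA receptors belong. The share of all genes tested was 8.50%, near that of the other channels. It also stands beside the counts of single classes below. Whether the groups of genes differ was not tested. The summed level of all 28 receptor rows, low ones included, was 467.5, 506.8 and 451.1 normalized counts in wild type 1, 3 and 4 and 309.3, 292.4 and 311.6 in mutant 1, 2 and 3. For the 37 other channel rows, accessory subunits and cacng genes included, the sums were 615.0, 580.2 and 596.2 in wild type and 559.7, 484.8 and 549.1 in mutants. Neither sum overlapped between genotypes, and the mutant mean was 0.641 of the wild type mean for receptors and 0.890 for the other channels.

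The neuronal markers were lower in the same libraries. Their sum over 19 genes was 11266 to 12180.5 normalized counts in wild type and 10108 to 10549.7 in mutants, and their median log2 difference was -0.21. Set against 1000 normalized counts of these markers, the glutamate receptor rows came to 23.2, 24.1 and 23.7 in wild type 1, 3 and 4 and 13.9, 14.5 and 15.2 in mutant 1, 2 and 3. The voltage-gated and other channel rows came to 50.5, 48.9 and 52.9 in wild type and 53.1, 48.0 and 53.6 in mutants. On this measure the glutamate receptors did not overlap between genotypes and the other channels did. It rests on a sum, in which markers with high values weigh most, and single markers differed. Of 18 neuronal markers tested, 16 had negative log2 differences and 2 positive ones. snap25b was at -1.02 and isl1 at -0.78 (limma adjusted p = 8.52e-07 and 6.16e-05), while elavl4, with higher values, was at -0.23. The median of the glutamate receptor genes tested was -0.79, so the measure depends on the markers chosen. Photoreceptor markers, whose cells belong to a retina rich in these receptors, summed to 1430.2 to 2374 in wild type and 727.9 to 900.4 in mutants. The part of these cell types in the receptor result was not tested.

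**Figure D2:**
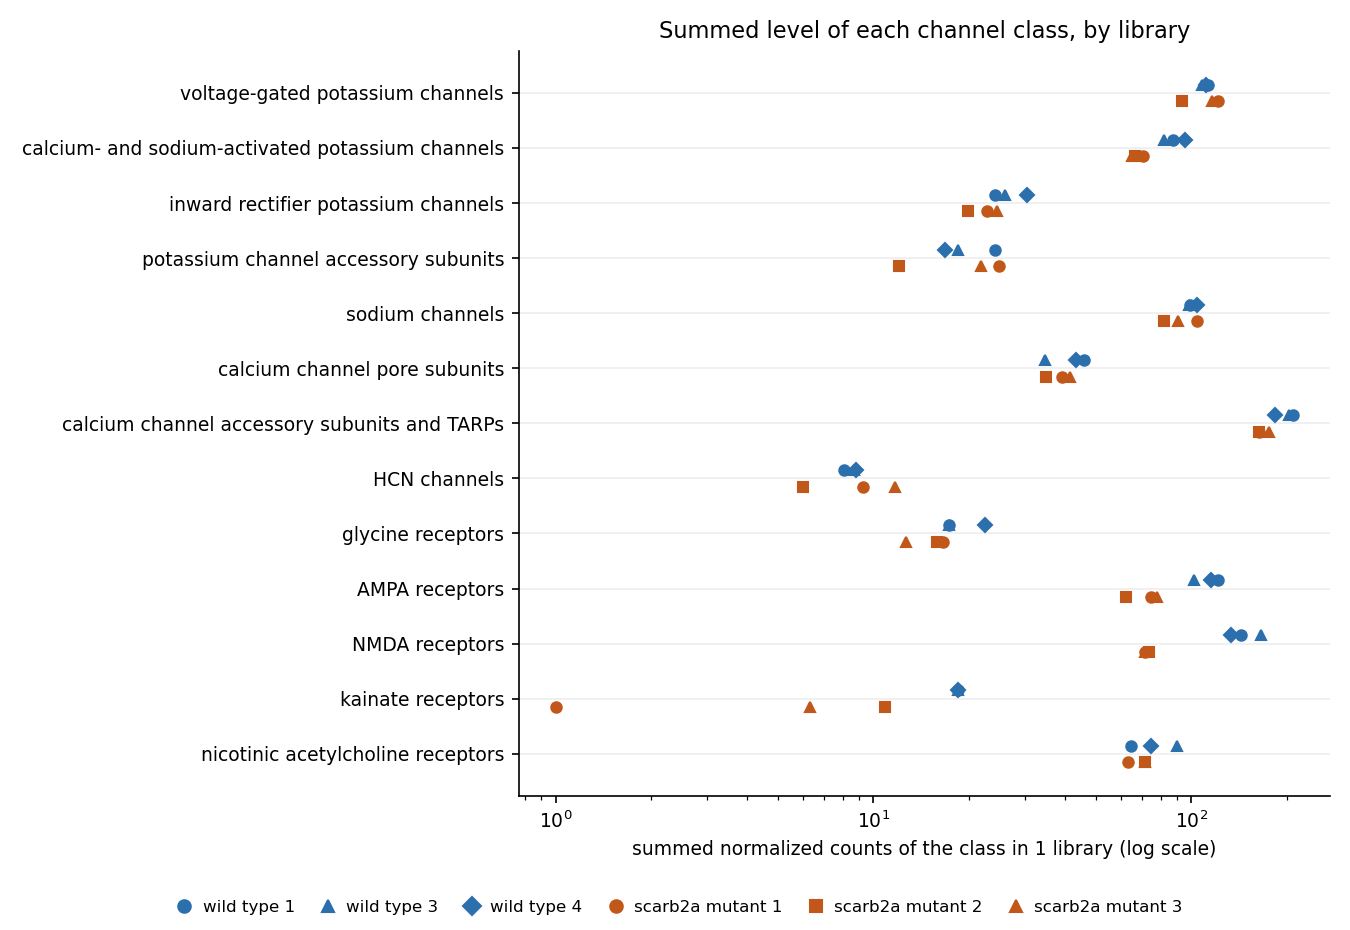
Summed normalized counts of the rows of each channel class in each library, on a log axis, with wild type libraries in blue and mutant ones in orange and the replicate number as the symbol. The plot holds 13 of the 15 classes. The NMDA, AMPA, kainate and glycine receptor sums do not overlap between genotypes. Nor do those of calcium- and sodium-activated potassium channels, or those of calcium channel accessory subunits taken with the cacng regulators of AMPA receptors. Those of the other classes drawn overlap, voltage-gated potassium and sodium channels among them.

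NMDA receptor genes were lower in the mutant. These receptors let calcium in when glutamate binds while the membrane is depolarized, and each needs the obligatory subunit that grin1 genes encode. Zebrafish carry a pair of copies, grin1a and grin1b, and both were lower. grin1b was at 70.4, 60.6 and 67.5 normalized counts in wild type 1, 3 and 4 and at 31.0, 25.8 and 29.9 in mutant 1, 2 and 3. The lowest wild type library was thus well above the highest mutant library. Its mean fell from 66.2 ± 5.03 to 28.9 ± 2.74 (SD, n = 3), with a log2 difference of -1.17 ± 0.169 (SE; limma adjusted p = 5.19e-05), the smallest adjusted p of the 42 genes.

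grin1a was at 65.8, 88.8 and 57.8 normalized counts in wild type 1, 3 and 4 and at 37.3, 43.6 and 40.8 in mutant 1, 2 and 3. Wild type 3 was the highest library, and the groups did not overlap. The log2 difference was -0.77 ± 0.174 (SE; limma adjusted p = 0.00363). Both calls held when any single library was left out, and that of grin1a was lost in limma without a mean-variance trend (adjusted p = 0.0524). The other subunit genes of the family were low. grin2aa, which encodes a glutamate-binding subunit, had 3.5, 8.7 and 5.6 normalized counts in wild type and 2.1, 2.0 and 0.9 in mutants. grin3a, a subunit known in mammals to lower calcium entry, had 13 counts in the wild type libraries and 3 in the mutant ones, a depth-scaled ratio of 4.40 (95% exact interval 1.21 to 24.0, counting error only). It reached the 6 counts that every listed gene has in some library only in wild type 3, so this ratio may be inflated. It did not pass in the fit without the filter on low values (limma adjusted p = 0.154). With all 4 rows summed, NMDA receptor genes stood at 143.2, 165.7 and 133.3 in wild type and 71.4, 73.4 and 71.6 in mutants, a mean of 147.4 ± 16.6 against 72.1 ± 1.1 (SD, n = 3).

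**Figure D3:**
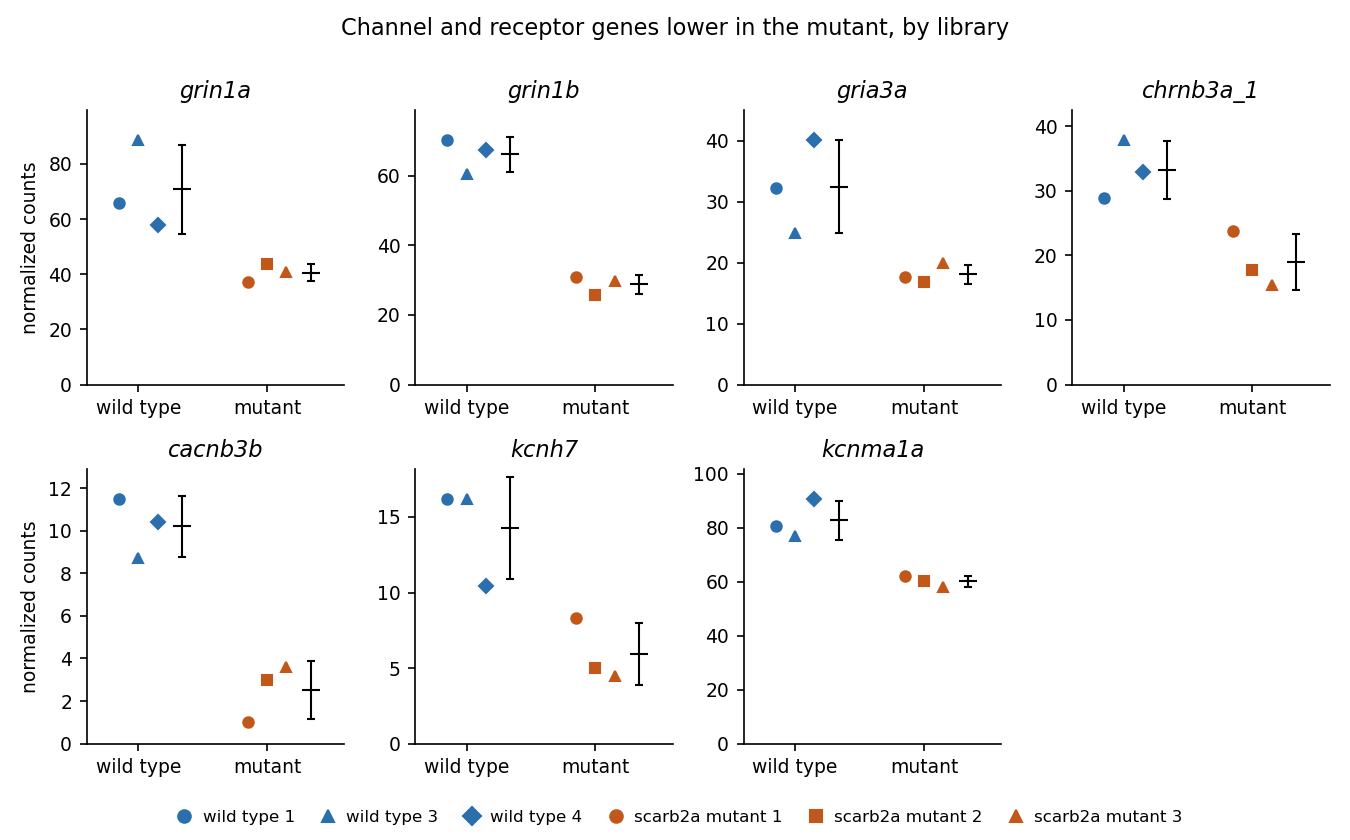
Normalized counts in each library of 7 of the 8 channel and receptor genes with a limma adjusted p below 0.05, on axes that start at 0, with the mean and SD of each genotype in black. In every panel the 3 mutant libraries lie below the 3 wild type libraries, from 60.6 to 70.4 down to 25.8 to 31.0 for grin1b and from 8.7 to 11.5 down to 1.0 to 3.6 for cacnb3b.

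AMPA receptors carry the fast excitatory current at glutamate synapses. Of their 4 genes tested, gria3a was lower, and the log2 differences of all 4 were negative, with a median of -0.64. gria3a was at 32.3, 24.9 and 40.2 normalized counts in wild type 1, 3 and 4 and at 17.6, 16.8 and 19.9 in mutant 1, 2 and 3. The groups did not overlap, although the wild type libraries spread widely. Its log2 difference was -0.79 ± 0.236 (SE; limma adjusted p = 0.0239). That call was lost without wild type 1 or 4 or mutant 1 or 2 (adjusted p up to 0.137), in DESeq2 (0.132) and in limma without a trend (0.0553).

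The copies of gria2, which encodes the subunit known in mammals to keep calcium out of the channel, came close to the threshold and did not pass. gria2a had 15.0, 20.6 and 15.3 normalized counts in wild type and 10.3, 7.9 and 8.2 in mutants, a log2 difference of -0.87 (95% interval -1.52 to -0.22, limma adjusted p = 0.0574). gria2b had 39.2, 44.4 and 41.0 in wild type and 35.2, 23.8 and 29.9 in mutants, a log2 difference of -0.49 (95% interval -0.90 to -0.08, adjusted p = 0.0906). Neither copy overlapped between genotypes. With library totals made equal both passed (adjusted p = 0.0312 and 0.0408). gria4a ranged from 8.7 to 25.4 in wild type and from 8.3 to 16.3 in mutants, and gria4b, under the limit, from 3.2 to 9.2 and from 2.0 to 3.6. Both overlapped.

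Kainate receptors, which act both at synapses and on release, had low and uneven values. grik1a was at 13.9, 9.7 and 10.4 normalized counts in wild type 1, 3 and 4 and at 1.0, 9.9 and 3.6 in mutant 1, 2 and 3. Mutant 2 lay inside the wild type range, so the groups overlapped. The log2 difference was -1.39 (95% interval -2.48 to -0.31, limma adjusted p = 0.0669). It was -2.01 (adjusted p = 0.0123) without mutant 2 and -0.79 (adjusted p = 0.268) without mutant 1, and did not pass without any of the other 4 libraries (adjusted p from 0.109 to 0.176). The copy grik1b, under the limit, had 4.6, 8.7 and 8.0 in wild type and 0.0, 1.0 and 2.7 in mutants, from 22 and 4 counts. Fitted without the filter on low values it passed (limma adjusted p = 0.0259). Every listed gene has at least 6 counts in some library, and grik1b reached 6 only in wild type 3 and 4, so its difference may be inflated.

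All 11 glutamate receptor rows together summed to 282.8, 285.9 and 266.6 normalized counts in wild type 1, 3 and 4 and to 146.9, 146.7 and 155.8 in mutant 1, 2 and 3. The mutant mean was 0.538 of the wild type mean. Of the 7 tested, 3 were lower, and all 7 log2 differences were negative with a median of -0.79. At an unadjusted limma p of 0.05, 6 of the 7 were lower, against 14.5% of all genes tested.

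GABA-A receptors are the chloride channels of fast inhibition. The beta subunit gene gabrb4 had 32.3, 32.5 and 25.7 normalized counts in wild type 1, 3 and 4 and 30.0, 23.8 and 31.7 in mutant 1, 2 and 3. The groups overlapped, with a log2 difference of -0.08 (95% interval -0.52 to 0.36). Other genes of the class were under the limit. gabrz had 12 counts in the wild type libraries and 2 in the mutant ones, a depth-scaled ratio of 6.09 (95% exact interval 1.35 to 56.0, counting error only). gabrr1, a rho subunit of a kind known from retinal bipolar cells in mammals, had 10 counts and 1, a ratio of 10.1 (1.44 to 440.2). All genes listed by the authors have at least 6 counts in some library. gabrz reached 6 only in wild type 1 and gabrr1 only in wild type 4, so these ratios may be inflated. All mutant values of both genes lay below all wild type values. Neither passed in the fit without the filter on low values (limma adjusted p = 0.134 and 0.159). gabrb2 ranged from 2.4 to 8.1 normalized counts in wild type and from 0.0 to 3.1 in mutants, and gabrr2b from 0.0 to 3.2 and from 0.9 to 8.3. Both overlapped.

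Glycine receptors, the other inhibitory chloride channels, gave no call. Of their 4 alpha subunit genes only glra4a was tested, with 6.9, 6.5 and 4.0 normalized counts in wild type and 12.4, 6.9 and 7.3 in mutants. Its log2 difference was 0.52 (95% interval -0.34 to 1.39, limma adjusted p = 0.427), and its groups overlapped. glra2 had 3.5, 5.4 and 5.6 in wild type and 1.0, 2.0 and 1.8 in mutants, without overlap. glra1 and glra3 ranged from 1.1 to 8.0 in wild type and from 0.0 to 5.0 in mutants.

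Of 3 nicotinic acetylcholine receptor genes tested, 1 was lower. chrnb3a, listed in a row with a number suffix as chrnb3a_1, encodes a neuronal beta subunit and was at 28.9, 37.9 and 32.9 normalized counts in wild type 1, 3 and 4 and at 23.8, 17.8 and 15.4 in mutant 1, 2 and 3. The groups did not overlap. The log2 difference was -0.79 ± 0.233 (SE; limma adjusted p = 0.0219), a call lost without wild type 3 or 4 or mutant 2 or 3 (adjusted p up to 0.0981), in DESeq2 (0.145) and in limma without a trend (0.0554). chrna5, a neuronal accessory subunit gene, had 17.3, 33.6 and 20.1 in wild type and 21.7, 32.7 and 25.4 in mutants. Its ranges overlapped almost fully, with a log2 difference of 0.20 (95% interval -0.35 to 0.75).

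The subunit genes of the muscle receptor, chrna1 and chrnd, had higher means in the mutant and gave no call. chrna1 ranged from 4.6 to 12.0 normalized counts in wild type and from 7.9 to 20.9 in mutants, and the groups overlapped. chrnd had 1.2, 2.2 and 0.8 in wild type and 3.1, 4.0 and 6.3 in mutants, 4 counts against 14, without overlap. Skeletal muscle markers, 16 genes, summed to 242.5 to 545.3 in wild type and to 308.5 to 552.1 in mutants. They overlapped too, and their part in these values was not tested. chrna10a, which in mammals serves cochlear hair cells, had 8.1, 7.6 and 5.6 in wild type and 2.1, 2.0 and 0.0 in mutants. It passed when fitted without the filter on low values (limma adjusted p = 0.0275). Every listed gene has at least 6 counts in some library, and chrna10a reached 6 only in wild type, so its difference may be inflated. chrna4b ranged from 2.2 to 4.6 and from 3.1 to 6.9, with overlap.

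Voltage-gated potassium channels held 5 tested genes, of which kcnh7 was lower. kcnh7 encodes a channel of the ether-a-go-go related group and was at 16.2, 16.2 and 10.4 normalized counts in wild type 1, 3 and 4 and at 8.3, 5.0 and 4.5 in mutant 1, 2 and 3. The groups did not overlap, and the log2 difference was -1.15 ± 0.372 (SE; limma adjusted p = 0.0347). The call was lost without wild type 1 or 3 or mutant 2 or 3 (adjusted p up to 0.122) and in DESeq2 (0.176). kcnb2, a delayed rectifier gene, had 8.1, 8.7 and 4.8 in wild type and 2.1, 3.0 and 3.6 in mutants, a log2 difference of -1.06 that did not pass (95% interval -2.06 to -0.05, adjusted p = 0.140).

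The fast potassium channel genes gave intervals around 0. kcnc3a, which encodes a channel that lets neurons fire rapidly, had 54.2, 53.0 and 59.4 normalized counts in wild type and 67.3, 55.5 and 56.2 in mutants. Its log2 difference was 0.10 (95% interval -0.22 to 0.42), so that a change as large as that of grin1a lies outside the interval. kcnd3, of the transient A-type current, had 31.2, 27.1 and 28.1 in wild type and 33.1, 24.8 and 41.7 in mutants, a log2 difference of 0.17 (95% interval -0.28 to 0.63). kcnc1a ranged from 3.2 to 8.8 and from 5.0 to 10.3, with overlap. Summed over the class, wild type libraries held 108.2 to 113.2 normalized counts and mutant ones 93.3 to 121.1.

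Among calcium-activated potassium channels, kcnma1a was lower. It encodes the pore of the large-conductance channel that joins membrane voltage to calcium. Its levels were 80.8, 76.9 and 90.8 normalized counts in wild type 1, 3 and 4 and 62.1, 60.4 and 58.0 in mutant 1, 2 and 3. The spread within each genotype was small and the groups did not overlap. The log2 difference of -0.45 ± 0.137 (SE; limma adjusted p = 0.0256) was the smallest among the 8 genes. Its call was lost without wild type 4 or mutant 2 or 3 (adjusted p up to 0.115), in DESeq2 (0.176) and in limma without a trend (0.0719). kcnn1a, of the small-conductance channels, ranged from 4.8 to 6.9 in wild type and from 5.9 to 8.3 in mutants, with a log2 difference of 0.29 (95% interval -0.57 to 1.15).

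Other potassium channel genes were near the limit. The G protein activated inward rectifiers kcnj6 and kcnj3a had log2 differences of -0.45 (95% interval -1.21 to 0.32) and -0.08 (95% interval -0.98 to 0.83). Their levels lay between 4.6 and 14.1 normalized counts in wild type and between 5.0 and 10.3 in mutants. kcnip3a, an accessory subunit gene of A-type channels, ranged from 6.5 to 12.7 and from 4.0 to 9.3, with a log2 difference of -0.47 (95% interval -1.32 to 0.39). All of these overlapped between genotypes. Under the limit were the inward rectifiers kcnj11l and kcnj1b, the two-pore channel gene kcnk6 and the accessory genes kcnab2a and kcnip1b, between 0.0 and 8.1 in single libraries, with overlap. kcnip1b_1, a row of the same symbol, ranged from 2.2 to 2.4 in wild type and from 3.0 to 6.2 in mutants, without overlap.

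Sodium and HCN channel genes gave no call. scn8aa encodes the pore of a sodium channel that starts action potentials and had 70.4, 66.0 and 69.1 normalized counts in wild type 1, 3 and 4 and 65.2, 62.4 and 58.9 in mutant 1, 2 and 3. The mutant values lay just below the wild type ones, and the log2 difference was -0.14 (95% interval -0.43 to 0.15, limma adjusted p = 0.543). scn2b, an accessory subunit gene, had 28.9, 32.5 and 35.3 in wild type and 39.3, 19.8 and 31.7 in mutants. The mutant libraries spread around the wild type ones, with a log2 difference of -0.14 (95% interval -0.63 to 0.36). hcn2b, of the pacemaker channels, ranged from 6.9 to 8.7 and from 5.0 to 7.2, with a log2 difference of -0.31 (95% interval -1.14 to 0.51). hcn4l had 2 counts in the wild type libraries and 9 in the mutant ones, a depth-scaled ratio, mutant over wild type, of 4.44 (95% exact interval 0.918 to 42.2, counting error only). It reached the 6 counts that every listed gene has in some library only in mutant 3, so this ratio may be inflated.

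Of 15 calcium channel genes tested, the cacng genes included, cacnb3b alone was lower, or 6.67% against 8.50% of all genes tested. It encodes a beta subunit, which brings the pore to the membrane, and was at 11.5, 8.7 and 10.4 normalized counts in wild type 1, 3 and 4 and at 1.0, 3.0 and 3.6 in mutant 1, 2 and 3. The groups lay far apart, from 31 and 8 counts in total. The mean fell from 10.2 ± 1.41 to 2.53 ± 1.36 (SD, n = 3). The log2 difference was -1.74 ± 0.477 (SE; limma adjusted p = 0.0141), the largest of the 42 in size, and the call was lost without wild type 1 or 4 (adjusted p of 0.0537 and 0.0512) and in DESeq2 (0.0858).

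None of 4 pore genes passed. cacna1g, of low-voltage activated channels, had 9.2, 9.7 and 12.9 normalized counts in wild type and 12.4, 9.9 and 17.2 in mutants, a log2 difference of 0.27 (95% interval -0.42 to 0.96). cacna1ba, of a presynaptic channel, had 12.7, 16.2 and 11.2 and 9.3, 12.9 and 6.3, a log2 difference of -0.49 (95% interval -1.21 to 0.23). Both overlapped between genotypes. The copies cacna1aa and cacna1ab, of another presynaptic channel, ranged from 2.2 to 11.5 in wild type and from 3.6 to 9.3 in mutants. The log2 difference of cacna1ab was 0.39 (95% interval -0.67 to 1.45). cacna1fa, known from photoreceptor synapses, was under the limit, between 2.2 and 6.9 and between 2.0 and 6.3.

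The transmembrane regulators of AMPA receptors belong to the cacng genes, and most of those tested overlapped between genotypes. cacng2b, which encodes the zebrafish counterpart of stargazin, had 66.9, 70.4 and 62.7 normalized counts in wild type and 64.2, 46.6 and 67.1 in mutants. Mutant 2 was low and the other mutant libraries lay inside the wild type range. The log2 difference was -0.18 (95% interval -0.52 to 0.15), and that of its copy cacng2a was 0.04 (95% interval -0.45 to 0.53), from 20.6 to 30.0 in wild type and 21.7 to 26.7 in mutants. cacng8a had 11.5, 10.8 and 8.8 in wild type and 4.1, 3.0 and 7.3 in mutants, without overlap, and did not pass (log2 difference -1.03, 95% interval -1.90 to -0.16, adjusted p = 0.0922). cacng7b had 14 counts in the wild type libraries and 2 in the mutant ones, a depth-scaled ratio of 7.10 (95% exact interval 1.63 to 64.4, counting error only). It reached the 6 counts that every listed gene has in some library only in wild type 4, so this ratio may be inflated. It did not pass in the fit without the filter on low values (limma adjusted p = 0.0889). cacng8b and cacng3b ranged from 4.6 to 17.3 in wild type and from 5.2 to 12.4 in mutants. Of the other accessory genes, cacna2d2b did not overlap between genotypes, at 7.2 to 11.5 and 4.5 to 6.2. cacna2d2a, cacna2d3, cacnb1 and cacnb4b_1 overlapped, with levels of 4.6 to 23.1 in wild type and 6.3 to 22.8 in mutants.

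Teleost fish kept many of these genes as a pair of copies, and the rows held 8 such pairs. For each pair the log2 ratio of copy b to copy a in a library was compared between genotypes by an exact permutation test, two-sided, in which 3 against 3 libraries cannot go below 0.1, so that no pair could pass. For cacna2d2 the mean log2 ratio was 0.68 ± 0.508 in wild type libraries and -0.42 ± 0.236 in the mutant ones (SD, n = 3; exact permutation p = 0.1, 0.4 adjusted over the 8 pairs). For gria2 it was 1.26 ± 0.160 and 1.64 ± 0.140 (SD, n = 3; exact permutation p = 0.1, 0.4 adjusted). In these 2 pairs the genotypes did not overlap. With 3 against 3 libraries a pair without any difference does so with a probability of 0.1. These values thus cannot decide whether the balance of the copies changed. The grin1 ratio was -0.08 ± 0.410 in wild type libraries and -0.48 ± 0.240 in the mutant ones (SD, n = 3; exact permutation p = 0.3) and overlapped, and the other 5 pairs overlapped with p from 0.3 to 0.6. The labels do not say how reads that match both copies were counted, so that the division between copies is uncertain.

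**Figure D4:**
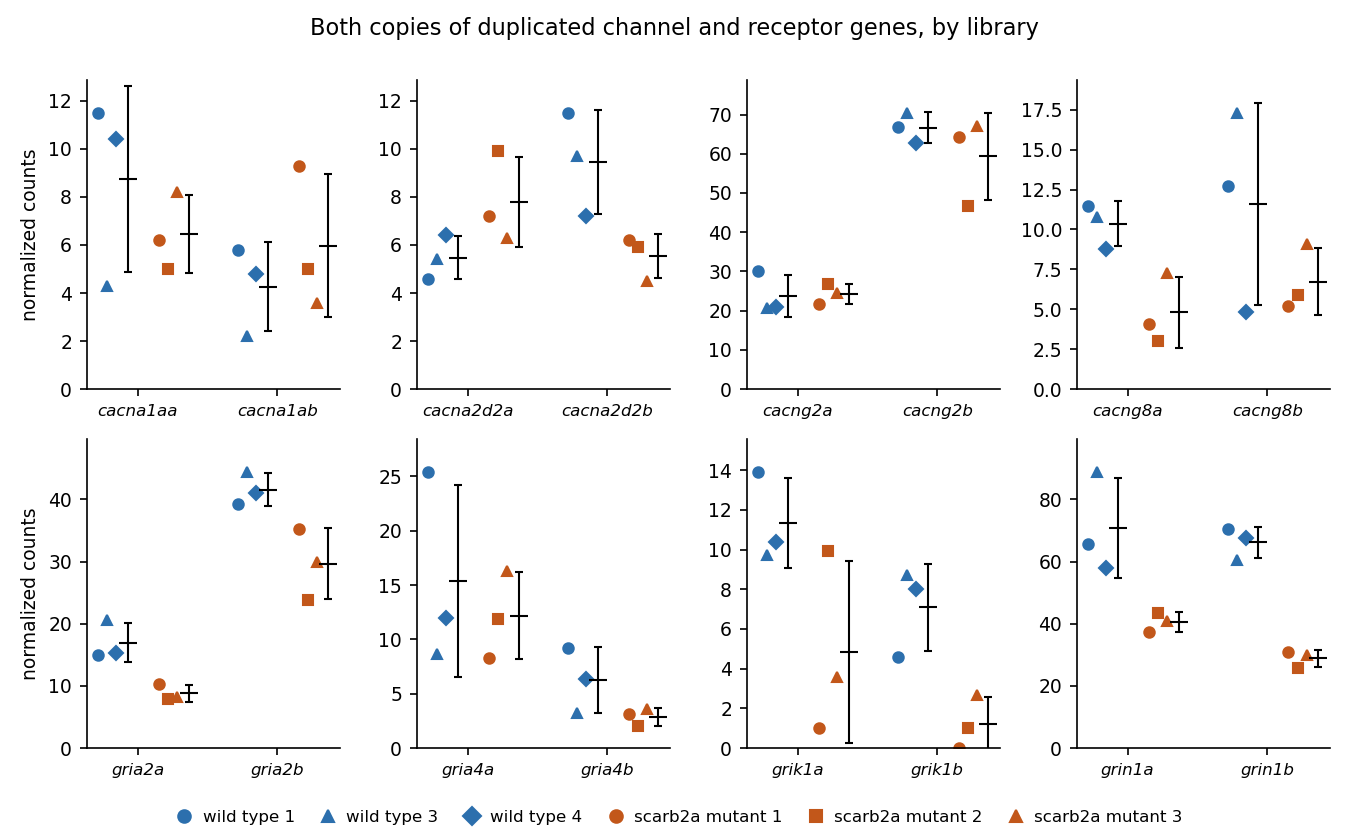
Normalized counts in each library of both copies of the 8 duplicated channel and receptor genes, on axes that start at 0, with the mean and SD of each genotype in black. Both grin1 copies and both gria2 copies are lower in all mutant libraries than in all wild type ones, whereas cacng2b, from 62.7 to 70.4 in wild type, lies between 46.6 and 67.1 in mutants.

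The 23 genes under the limit had means of 1.72 to 4.58 normalized counts and 11 to 28 counts over all libraries. For 8 of them, or 34.8%, all mutant values lay below all wild type values: cacng7b, chrna10a, gabrr1, gabrz, glra2, grik1b, grin2aa and grin3a. Among all genes under the limit the share was 10.8%. All mutant values lay above for chrnd and kcnip1b_1, against 10.6% of all such genes. Every listed gene has at least 6 counts in some library. The 8 reached 6 only in wild type, and chrnd and kcnip1b_1 only in mutants. Each was thus listed through its high group, so these shares are not a test. Of the 8, 7 are receptor subunit genes, which make up 14 of the 23, and cacng7b encodes a receptor regulator. Whether the receptor genes under the limit differ from the others there was not tested. In the fit without the filter chrna10a and grik1b passed, against 1.72% of all genes under the limit that were lower. Both were listed through their wild type values, so these calls are not free of that selection.

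The depth sets what could be called. The smallest log2 difference that would have passed ranged from 0.40 for kcnma1a to 1.49 for grik1a, with a median of 0.97 over the 42 genes. An estimate of 1 on the log2 scale would have been called for 22 of them. Among the 34 that did not pass, the 95% interval reached down to -1 for 12 and up to 1 for 6, so that changes of that size are not excluded for them. Of the 16 genes with a mean of at least 20, 6 were lower, or 37.5%, against 11.2% of all genes at that level.

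Genes that work beside these channels were read from 5 further lists. For comparison, 8.50% of all genes tested were lower and 10.9% higher. Metabotropic receptors of the same transmitters and of amines had 5 genes tested, of which 2 were lower and none higher. grm4, a presynaptic glutamate receptor gene, fell from 13.9 ± 2.16 to 5.20 ± 0.200 normalized counts (SD, n = 3; limma adjusted p = 0.0175), and the dopamine receptor gene drd5a from 13.4 ± 2.57 to 5.83 ± 1.68 (adjusted p = 0.0448). Of 45 genes of receptor anchoring and accessory proteins 6 fell and none rose, with a median log2 difference of -0.34. The share lower was 13.3%, against 8.50% of all genes tested. nptna, which encodes a synaptic adhesion protein, fell from 80.6 ± 5.81 to 53.7 ± 6.35 and nrxn3b, a presynaptic neurexin gene, from 35.4 ± 7.22 to 18.1 ± 2.29 (adjusted p = 0.00827 and 0.00849).

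Genes that make, load and clear transmitters moved both ways. Of 20 tested 6 were lower and 3 higher, or 30.0% and 15.0%, against 8.50% and 10.9% of all genes tested. slc1a2b, a glial glutamate transporter gene, fell from 781.1 ± 74.5 to 425.1 ± 12.1 normalized counts, and the GABA transporter gene slc6a1b from 175.0 ± 5.31 to 108.9 ± 16.9 (SD, n = 3; limma adjusted p = 2.51e-07 and 3.67e-04). Another glial glutamate transporter gene, slc1a3a, rose from 61.9 ± 12.4 to 107.9 ± 2.44 (SD, n = 3; limma adjusted p = 4.88e-04). The radial glia marker list shares 4 of the 27 genes of this list. Of 18 other ion channel genes none fell and 5.56% rose, both below the shares of all genes tested. The gene that rose was trpm1b, of a channel of retinal bipolar and pigment cells, from 13.8 ± 5.30 to 31.4 ± 11.2 (limma adjusted p = 0.0133). Of 20 genes of sodium pumps, calcium pumps and exchangers and chloride cotransporters 4 rose and 4 fell. The calcium pump gene atp2b1b fell from 50.8 ± 2.97 to 13.1 ± 5.20, and fxyd1, a regulator of the sodium pump, rose from 24.9 ± 5.48 to 62.7 ± 1.36 (adjusted p = 1.38e-05 and 4.30e-05).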

How the data were processed

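Messenger RNA was measured in 6 libraries made by MARS-seq adapted to bulk RNA, per the labels' protocols. The build was danRer11, per the submitters' processing notes; neither an aligner nor a counter is named in the labels. The deposited values are a signal, gene counts divided by the authors with a factor for each library, since 99.997% of 67308 entries came out as whole multiples of 1 count (tolerance 0.0505). The labels do not say whether a count is a read or a molecule. The exact intervals take counts as independent, which reads need not be. They come from counts summed over libraries, so they cover counting error at most and leave out the spread between pools.

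Members and lists were chosen with earlier results of these data known. limma was fitted to log2(value + 1) with a mean-variance trend and no term but genotype, on genes with a mean of at least 5, with Benjamini-Hochberg adjustment over all of them. Values of 2 of the 42 tested genes, 1 of them among the 8 that passed, are not reported here; the counts include them. Otherwise, named with full statistics were all genes that passed, the 2 tested genes with the highest mean in each class, the 5 with the smallest p that did not pass and those beside the limit. The other members are given by level so that all are accounted for. Of the further lists the 2 genes with the smallest p are named, with slc1a3a added beside slc1a2b. Depth-scaled ratios are of summed counts with exact binomial 95% intervals. They are given only for members with 3 counts or fewer in a genotype. That rule picks genes by a low group. Every listed gene also has at least 6 counts in some library, so that low genes were listed through their high group. An interval that leaves out 1 is therefore not a test. Libraries of a genotype differed with a chi-square of 1.66 to 2.05 per degree of freedom, so none was counted as a duplicate. p values set the genotype difference against the spread between these pools, which limma moderates by a trend over all genes. Levels of different genes are not read as amounts of RNA. A sum over genes weighs each gene by its normalized counts. Of 65 rows 63 matched a symbol of the RefSeq table of GRCz12tu and 1 an older name; no coordinates or sequences are given. The procedure was tested on simulated data, and no statement here rests on the outcome. edgeR called 1879 genes on the recovered counts.

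Alternatives were other pseudocounts, filters, scalings and thresholds, limma with sample weights or no trend, DESeq2, edgeR, a replicate block, summed rows of a symbol and each library left out. The alternatives for scarb2a were chosen after seeing the data. Tools were Python 3.11.15 with scipy 1.17.1, pandas 2.3.3, numpy 2.4.6 and matplotlib 3.10.9, and R 4.3.3 with DESeq2 1.42.0, edgeR 4.0.16 and limma 3.58.1.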

Additional observations from a re-analysis of the deposited data

How the results depend on the processing

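No channel or receptor gene was called higher under any of the 21 alternatives. The count of lower genes, 8 of 42, was 3 in DESeq2 and with an adjusted p of 0.01, 12 with 0.1, 11 with equal totals, 10 without the filter, 5 with a replicate block and 4 to 7 with 1 library left out (4 without wild type 4, and 5 without wild type 1, mutant 2 or mutant 3). The median log2 difference stayed between -0.35 and -0.16. Over all genes 1873 were called, against 1007 in limma without a trend, 1031 in DESeq2, 1045 with an adjusted p of 0.01, and 1419 to 1619 with 1 library left out. Equal totals shifted the median of all genes by -0.11.

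grin1b passed under all 21 alternatives and grin1a under 20, while 3 of the 8 called genes passed without any single library. The replicate block used the numbers 1 and 3, which both genotypes share, and the labels give these numbers no meaning. The wild type and the mutant library with unshared numbers added nothing to the genotype difference in that fit. That difference rested on libraries 1 and 3 of each genotype, so the block cannot be told from leaving out the others. The deviations of same-numbered libraries had correlations of 0.04 and -0.01. With the block gria3a, chrnb3a_1, kcnh7 and kcnma1a did not pass (adjusted p of 0.223, 0.0805, 0.0735 and 0.165), and grik1a passed (0.0079). Genes whose sign changed had not passed: cacng2a at -0.065 and kcnc3a at -0.012 with equal totals, and cacng2a at -0.11, chrna5 at -0.040, kcnj3a at 0.29 and scn2b at 0.20 with the block. With 1 library left out, cacng2a ranged from -0.047 to 0.21, kcnj3a from -0.37 to 0.13, gabrb4 from -0.19 to 0.039, scn2b from -0.35 to 0.13 and kcnd3 from -0.0043 to 0.36. The scarb2a difference ranged from -0.012 to 0.88.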
